A study of Homo sapiens with 12 samples.

Results

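Autophagy is the route by which a cell encloses its own proteins and organelles in a membrane and delivers them to the lysosome. A kinase complex around ULK1 starts the process, a class III phosphatidylinositol kinase complex marks the membrane, and ATG2, ATG9 and WIPI proteins let it grow. Conjugating enzymes then attach small proteins of the ATG8 family (LC3 and GABARAP) to the membrane, where cargo receptors bind them together with what is to be degraded. Plasma cells, which secrete large amounts of immunoglobulin, rely on autophagy to clear surplus protein. The data described here are the expression values of 37 genes of this machinery in H929, a human myeloma cell line. The genes were listed by their known roles, and the platform annotation assigns 96 probe sets (groups of probes for 1 transcript) of the array to them. Of these 83 passed the filter on low values, 82 with 1 gene symbol, and each of the 37 genes kept at least 1 such probe set. The whole array gave 15587 genes by the same steps.

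Cells were treated for 24 hours with the combination of CHR-3996 (250 nM) and tosedostat (1 µM), with CHR-3996 (250 nM) alone, with tosedostat (CHR-2797, 1 µM) alone, or were left untreated, and each group has 3 samples, each on 1 array. CHR-3996 inhibits histone deacetylases, and tosedostat inhibits aminopeptidases, which break the peptides released by the proteasome down to amino acids. The samples are titled biological replicates, but whether each was a culture of its own is not stated. The p-values then cover the spread between these samples alone, which may be technical. All groups are of 1 cell line, and all values are of RNA from whole cultures, in which fewer cells of a kind and less RNA per cell cannot be told apart.

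Values are on the log2 scale, so a difference of 1 is a 2-fold change. A gene is given by its brightest kept probe set, and it is called changed where the limma p-value, adjusted by Benjamini and Hochberg over all 36395 probe sets tested, lies under 0.05. A level on the array cannot be set against that of another gene, so all comparisons below are between groups for the same probe set.

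Within each group the arrays correlated with one another at r between 0.978 and 0.983. The median log2 value of all probe sets was 5.29 on the combination arrays, 5.26 on the CHR-3996 arrays, 5.05 on the tosedostat arrays and 5.04 on the untreated arrays. The 3′ probe set of β-actin stood above its 5′ probe set by 1.24 with the combination, 1.59 with CHR-3996, 2.09 with tosedostat and 2.14 in untreated cells, while for GAPDH the difference was between 0.35 and 0.45 in every group. The part of these technical values in the changes below was not tested. Of 8 plasma cell markers 7 were measured, with group means between 8.89 and 13.54, among them SDC1, TNFRSF17, IRF4 and XBP1. Their summed linear level was 22750 to 23484 with the combination, 16659 to 26396 with CHR-3996, 38107 to 41737 with tosedostat and 37339 to 39417 in untreated cells, and 3 of the 7 were called lower with the combination, 4 with CHR-3996 and 0 with tosedostat, and 1, CD38, higher with the combination (0.81). Of 18 markers of stroma, T and NK cells, monocytes and epithelium 9 were kept, with group means between 2.84 and 7.39, none of them at 0, and their summed level was 608 to 705, 627 to 643, 486 to 585 and 525 to 558 in the same order of groups. LYZ, CDH1 and CD2 were called higher with the combination and with CHR-3996, and KRT8 with CHR-3996. Whether other cells have a part in the results was not tested.

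Most of the 37 genes were higher after CHR-3996 and after the combination, and a smaller set was higher after tosedostat. CHR-3996 against untreated cells gave 25 genes higher and 2 lower, where 31.7% of all genes were called higher and 18% lower. Tosedostat against untreated cells gave 8 genes higher and 0 lower, where 4.25% and 0.545% of all genes were called, and a further 10 members had an unadjusted p under 0.05, none of them lower, where 18.6% of all genes had a p under 0.05. The count after tosedostat was 4 without tosedostat replicate 2, and 5 without untreated replicate 1 or without untreated replicate 3. The combination against untreated cells gave 28 higher and 2 lower, where 34.6% and 15.9% of all genes were called. The median log2 fold change of the 37 genes was 0.83 with the combination, 0.67 with CHR-3996 and 0.24 with tosedostat, and over all genes it was 0.15, 0.11 and 0.04. These comparisons share the untreated arrays. A shift of every array to 1 median lowered the members' median to 0.59 with the combination and 0.45 with CHR-3996 and moved the median of all probe sets from 0.14 to -0.10 with the combination and from 0.11 to -0.11 with CHR-3996. That shift left 22 genes higher and 3 lower with the combination, and 20 higher and 3 lower with CHR-3996. Over all probe sets it turned the split of higher and lower calls from 32 and 14.1% into 23.4 and 24.5% with the combination, and from 29.4 and 15.7% into 22.1 and 24.7% with CHR-3996, and quantile normalization gave 23.6 and 27.1%, and 23.6 and 25.9%.

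**Figure D1:**
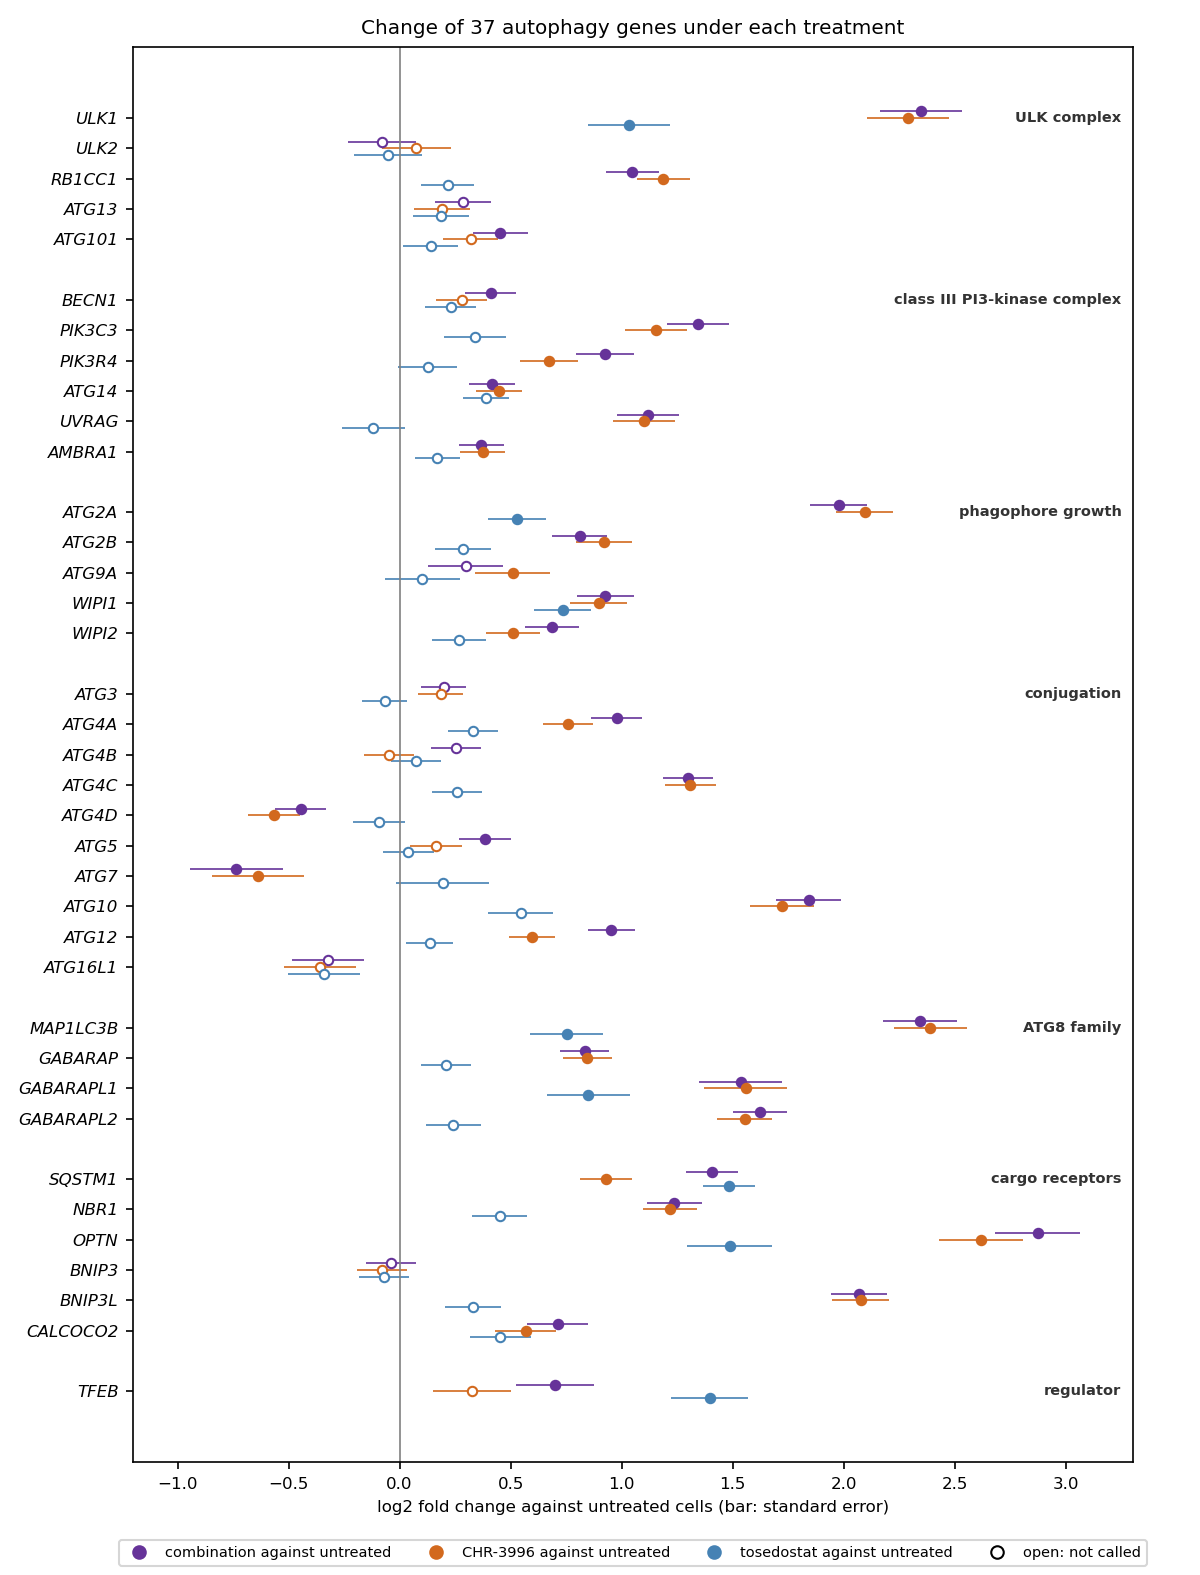
Log2 fold change of each of the 37 genes against untreated cells (points, with the standard error as a bar) under the combination, CHR-3996 and tosedostat, grouped by role. Filled points passed the test, 30 with the combination, 27 with CHR-3996 and 8 with tosedostat, and ATG4D and ATG7 are the only filled points left of 0.

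With the combination 30 members lay wholly above and 3 wholly below the untreated arrays, with CHR-3996 29 above and 2 below, and with tosedostat 22 above and 0 below. Over all genes 60.2%, 57.8% and 29.3% were apart in either direction in these comparisons. Of the 15587 genes 6193, 5561 and 3135 lay wholly above, and 3193, 3445 and 1427 wholly below.

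Promoters of the members were searched for the letters that are bound by known regulators of autophagy genes. The windows run from 250 bases before to 50 after the start of transcription (RefSeq, GRCh38.p14), and 33 of the 37 genes matched, with 42 promoters. The E-box CACGTG, read the same on both strands, stood in 3 member promoters (7.26% of all 35116 promoters hold it). The core TCACGTGA of the CLEAR element, which contains an E-box, also reads the same on both strands and is bound by TFEB, stood in 1 (0.98% of all), that of ATG3, as a second E-box among the 50 bases after the start. The cAMP response element TGACGTCA, also the same on both strands, stood in 1 (1.85% of all). On either strand, TGATGCAA of the amino acid response stood in 0 (0.866% of all) and the FOXO element GTAAACAA in 0 (0.954% of all). Of the 8 genes called higher after tosedostat, 0 had the E-box and 1, GABARAPL1, had the cAMP response element. The stretches with an E-box or the cAMP response element before the start are given 5′ to 3′ on the strand of the gene with the element in capitals. They lie at chr3:112561963-112562004 (minus strand, ATG3), chr14:55411831-55411875 (minus strand, ATG14), chr10:131982028-131982081 (minus strand, BNIP3) and chr12:10212823-10212876 (plus strand, GABARAPL1). A match describes the letters only.
ATG3: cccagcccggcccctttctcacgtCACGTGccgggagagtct
ATG14: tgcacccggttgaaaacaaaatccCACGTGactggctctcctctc
BNIP3: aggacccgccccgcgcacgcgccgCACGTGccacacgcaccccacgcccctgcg
GABARAPL1: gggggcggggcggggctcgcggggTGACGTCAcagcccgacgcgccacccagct

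Of the 5 genes of the ULK complex, 3 were called higher with the combination, 2 with CHR-3996 and 1 with tosedostat. The shares of all genes called higher were 34.6%, 31.7% and 4.25% in that order. ULK1, the kinase that receives nutrient signals and starts autophagy, had values of 7.45, 7.07 and 7.24 with the combination, 7.20, 7.22 and 7.15 with CHR-3996, 5.98, 6.07 and 5.76 with tosedostat, and 5.05, 5.21 and 4.45 in untreated cells. All treated arrays lay above the untreated ones, and those with CHR-3996, alone or combined, lay above those with tosedostat alone. On untreated replicate 3 the value was low, near the 40th percentile of that array (4.46). ULK1 rose by 2.35 with the combination (standard error 0.19, adjusted p = 2.36e-06 from limma), by 2.29 with CHR-3996 and by 1.03 with tosedostat (adjusted p = 0.0128). Without tosedostat replicate 2 the adjusted p of the last change was 0.0567. RB1CC1, the scaffold of the complex, had values of 11.63, 11.20 and 11.32 with the combination, 11.51, 11.55 and 11.50 with CHR-3996, 10.57, 10.59 and 10.49 with tosedostat, and 10.30, 10.36 and 10.34 in untreated cells. It rose by 1.05 with the combination and by 1.19 with CHR-3996 (standard error 0.12 for both), and was at 0.22 with tosedostat (adjusted p = 0.413). The tosedostat arrays lay above the untreated ones here too, by less than the test could call. ATG101, which stabilises ATG13, was called with the combination alone, at 0.45 (adjusted p = 0.0112, and 0.191 with equal array medians), against 0.32 with CHR-3996 (adjusted p = 0.0571). ATG13, an adaptor of the kinase, and ULK2, its second form, passed in no comparison, and their changes against untreated cells ran from -0.08 for ULK2 to 0.29 for ATG13, both with the combination.

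All 6 genes of the class III phosphatidylinositol kinase complex were called higher with the combination and 5 with CHR-3996, and 0 with tosedostat. Among all genes 34.6%, 31.7% and 4.25% were called higher in that order. PIK3C3, its catalytic subunit, had values of 11.18, 11.10 and 11.20 with the combination, 10.71, 11.13 and 11.07 with CHR-3996, 10.10, 10.28 and 10.08 with tosedostat, and 9.76, 10.02 and 9.67 in untreated cells. The arrays fell into a high pair of groups and a low pair, with no overlap between the pairs. PIK3C3 rose by 1.34 with the combination and by 1.16 with CHR-3996 (standard error 0.14 for both, adjusted p = 1.45e-05 and 4.49e-05), and was at 0.34 with tosedostat (adjusted p = 0.249). UVRAG, a subunit of the form of the complex that acts on endosomes and late autophagosomes, had values of 11.07, 10.65 and 10.99 with the combination, 10.66, 11.00 and 11.00 with CHR-3996, 9.75, 9.62 and 9.64 with tosedostat, and 9.89, 9.76 and 9.70 in untreated cells. It rose by 1.12 with the combination and by 1.10 with CHR-3996, while the tosedostat arrays overlapped the untreated ones at a change of -0.12. PIK3R4, the regulatory subunit, rose by 0.92 and 0.67 in these treatments. Its other kept probe set was at 0.20 and -0.43, and with the mean of both the change with CHR-3996 was 0.12 (adjusted p = 0.496) and its difference from tosedostat 0.21 (0.226), neither of them called. The smallest changes in the group were those of ATG14, which directs the complex to the forming membrane, at 0.41 and 0.45, AMBRA1, which binds beclin, at 0.37 and 0.37, and BECN1, which encodes beclin, at 0.41 with the combination (adjusted p = 0.0125) and 0.28 with CHR-3996 (adjusted p = 0.0698). With equal array medians the calls of ATG14 and AMBRA1 in both treatments and of BECN1 with the combination were lost. ATG14 had a change of 0.39 with tosedostat that did not pass the test (adjusted p = 0.071), although the tosedostat arrays lay above the untreated ones.

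Among the 5 genes of phagophore growth, 4 were called higher with the combination, 5 with CHR-3996 and 2 with tosedostat. Over all genes the shares called higher were 34.6%, 31.7% and 4.25%. ATG2A, which transfers lipids to the growing membrane, had values of 10.10, 10.03 and 9.98 with the combination, 9.99, 10.40 and 10.07 with CHR-3996, 8.51, 8.74 and 8.51 with tosedostat, and 7.97, 8.13 and 8.08 in untreated cells. The 3 treatments lay above the untreated arrays without overlap. ATG2A rose by 1.98 with the combination and by 2.09 with CHR-3996 (standard error 0.13 for both). The change of 0.53 with tosedostat was called at an adjusted p of 0.0499, and leaving out any 1 of the 6 arrays of that comparison took it past the threshold (0.0832 to 0.181). WIPI1, which binds the lipid made by the class III complex, rose by 0.93, 0.90 and 0.73 with the combination, CHR-3996 and tosedostat. Its values were 10.93, 10.72 and 10.67 with the combination, 10.56, 10.99 and 10.69 with CHR-3996, 10.63, 10.60 and 10.52 with tosedostat, and 9.83, 9.93 and 9.80 in untreated cells. Here the tosedostat arrays overlapped those with CHR-3996, unlike for ULK1 and ATG2A. ATG2B, the paralogue of ATG2A, and WIPI2, which recruits the conjugation complex, rose by 0.81 and 0.69 with the combination and by 0.92 and 0.51 with CHR-3996. The call of WIPI2 with CHR-3996 was lost with equal array medians (0.29, adjusted p = 0.0686), and that with the combination with the mean of its probe sets (0.34, adjusted p = 0.0672). ATG9A, the membrane protein that seeds the phagophore, was called with CHR-3996 alone, at 0.51 (adjusted p = 0.0299). It had 0.30 with the combination (adjusted p = 0.182), and its call ended without 3 of the 6 arrays, CHR-3996 replicate 2 and untreated replicates 1 and 3 (adjusted p = 0.0841 to 0.112), and with equal array medians.

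Of the 10 conjugation genes 5 were called higher and 2 lower with the combination, 4 and 2 with CHR-3996, and 0 with tosedostat. The shares of all genes were 34.6% higher and 15.9% lower with the combination, 31.7% and 18% with CHR-3996, and 4.25% and 0.545% with tosedostat. ATG10, the enzyme that transfers ATG12 to ATG5, had values of 8.16, 8.44 and 8.41 with the combination, 8.09, 8.41 and 8.15 with CHR-3996, 6.86, 7.09 and 7.18 with tosedostat, and 6.41, 6.37 and 6.71 in untreated cells. Every tosedostat array lay above every untreated one, and all lay below the groups with CHR-3996. ATG10 rose by 1.84 with the combination and by 1.72 with CHR-3996 (standard error 0.15 for both), and stood at 0.54 with tosedostat (adjusted p = 0.0724). ATG4C, one of 4 proteases that trim ATG8 proteins, had values of 10.65, 10.54 and 10.59 with the combination, 10.37, 10.70 and 10.73 with CHR-3996, 9.50, 9.62 and 9.53 with tosedostat, and 9.31, 9.25 and 9.31 in untreated cells. It rose by 1.30 with the combination and by 1.31 with CHR-3996, with a standard error of 0.11.

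The 4 proteases did not move as a group. ATG4A rose by 0.98 with the combination and by 0.76 with CHR-3996, ATG4D fell by 0.45 and 0.57, and ATG4B was at 0.26 and -0.05 (adjusted p = 0.0875 and 0.781). ATG4D read 8.28, 8.30 and 8.34 with the combination, 8.29, 8.18 and 8.08 with CHR-3996, 8.79, 8.54 and 8.64 with tosedostat, and 8.89, 8.76 and 8.60 in untreated cells. The arrays with CHR-3996, alone or combined, all lay below the others.

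ATG7, the activating enzyme that both conjugation reactions need, was the other gene that fell. Its values were 6.74, 7.17 and 7.22 with the combination, 6.76, 7.41 and 7.26 with CHR-3996, 7.84, 8.00 and 8.08 with tosedostat, and 7.44, 7.87 and 8.03 in untreated cells. The spread was wide, and the highest CHR-3996 array stood just under the lowest untreated one. ATG7 fell by 0.74 with the combination (standard error 0.21, adjusted p = 0.0135) and by 0.64 with CHR-3996 (adjusted p = 0.0277), and both calls ended without single arrays. These were combination replicate 1 or untreated replicate 3 for the combination (adjusted p = 0.0558 and 0.0549), and CHR-3996 replicate 1, untreated replicate 2 or untreated replicate 3 for CHR-3996 alone (0.0769 to 0.105).

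ATG12, a ubiquitin-like protein joined to ATG5, had values of 11.10, 10.82 and 10.96 with the combination, 10.56, 10.63 and 10.62 with CHR-3996, 10.13, 10.24 and 10.06 with tosedostat, and 9.99, 10.08 and 9.96 in untreated cells. The combination arrays lay above those with CHR-3996 alone. ATG12 rose by 0.95 with the combination and by 0.60 with CHR-3996 (standard error 0.11 for both), and was at 0.14 with tosedostat (adjusted p = 0.6). ATG5 was called by its brightest probe set with the combination alone, at 0.39 (adjusted p = 0.0182), a call that ended without untreated replicate 1 (0.0585) and with equal array medians. Another probe set of ATG5 rose by 0.75 with the combination and by 1.16 with CHR-3996 (adjusted p = 0.00207 and 9.95e-05), and ATG5 was called with CHR-3996 by the mean of its probe sets. ATG3, the enzyme that joins ATG8 proteins to lipid, and ATG16L1, which places the ATG12 and ATG5 pair on the membrane, passed in no comparison by their brightest probe sets. ATG16L1 was at -0.32, -0.36 and -0.34 with the combination, CHR-3996 and tosedostat (adjusted p = 0.13, 0.0972 and 0.335), and with equal array medians it was called lower with the combination and with CHR-3996.

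The 4 ATG8 family genes among the 37 were all called higher with the combination and with CHR-3996, and 2 with tosedostat. Over all genes 34.6%, 31.7% and 4.25% were called higher with the combination, CHR-3996 and tosedostat. A pair of further genes of the family, counted with the other autophagy genes, were not called in these comparisons. MAP1LC3A was at 0.13, 0.39 and -0.10 with the combination, CHR-3996 and tosedostat (adjusted p = 0.641, 0.161 and 0.887), and GABARAPL3 at 0.69, 0.78 and 0.73 (0.192, 0.143 and 0.416). The group means of GABARAPL3, 3.59 to 4.37, lay under the mean 40th percentile of the arrays in each group (4.45 to 4.63). At such low values the lack of a call says little. MAP1LC3C, also of the family, was listed but not measured. MAP1LC3B, which encodes the LC3 protein that marks autophagosomes, had values of 11.58, 11.37 and 11.27 with the combination, 11.15, 11.74 and 11.45 with CHR-3996, 9.62, 9.98 and 9.84 with tosedostat, and 8.92, 9.19 and 9.08 in untreated cells. The groups stood in 3 steps, with the combination and CHR-3996 overlapping at the top. MAP1LC3B rose by 2.34 with the combination (standard error 0.17, adjusted p = 1.1e-06 from limma) and by 0.75 with tosedostat (adjusted p = 0.0326). The tosedostat call ended without 5 of the 6 arrays in turn (0.0514 to 0.122), the exception being tosedostat replicate 1. MAP1LC3B has a near-identical copy, MAP1LC3B2, whose RNA was not separated from it here. GABARAPL1, a relative that acts late in autophagosome maturation, had values of 8.85, 9.08 and 9.04 with the combination, 8.65, 9.17 and 9.21 with CHR-3996, 8.34, 8.56 and 8.01 with tosedostat, and 7.42, 7.65 and 7.28 in untreated cells. It rose by 1.54, 1.56 and 0.85 in the 3 treatments in that order (standard error 0.19, adjusted p = 4.89e-05, 4.49e-05 and 0.0325), and the tosedostat call ended without tosedostat replicates 1 or 2 or untreated replicates 1 or 3 (0.0979 to 0.121). A brighter probe set that the annotation gives to both GABARAPL1 and its near-identical copy GABARAPL3 rose by 1.73, 1.70 and 1.13, and the 2 genes cannot be told apart there. GABARAPL2 had values of 12.70, 12.29 and 12.50 with the combination, 12.43, 12.44 and 12.41 with CHR-3996, 11.11, 11.23 and 11.00 with tosedostat, and 10.78, 10.97 and 10.87 in untreated cells. It rose by 1.62 with the combination and by 1.55 with CHR-3996 (standard error 0.12 for both), and had 0.24 with tosedostat (adjusted p = 0.378). GABARAP rose by 0.83 and 0.85 and was at 0.21 with tosedostat (adjusted p = 0.405).

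Of the 6 cargo receptors 5 were called higher with the combination and with CHR-3996, and 2 with tosedostat. The combination, CHR-3996 and tosedostat gave 34.6%, 31.7% and 4.25% of all genes higher. OPTN, which encodes optineurin, a receptor for ubiquitin-marked mitochondria and bacteria, had values of 11.23, 11.30 and 11.11 with the combination, 10.59, 11.27 and 11.02 with CHR-3996, 9.65, 10.15 and 9.68 with tosedostat, and 8.35, 8.52 and 8.15 in untreated cells. It had the largest rise of the 37 genes with the combination and with CHR-3996, and was level with SQSTM1 at the top with tosedostat. The rise was 2.87 with the combination (standard error 0.19, 7.33-fold), 2.62 with CHR-3996 (6.14-fold) and 1.49 with tosedostat (2.80-fold, adjusted p = 0.00205). SQSTM1, the receptor for ubiquitin-marked protein aggregates, had values of 12.98, 13.04 and 12.94 with the combination, 12.38, 12.72 and 12.42 with CHR-3996, 13.13, 13.00 and 13.06 with tosedostat, and 11.69, 11.56 and 11.48 in untreated cells. By the brightest probe sets it was the 1 receptor called higher after tosedostat than after CHR-3996, with no overlap of the arrays. SQSTM1 rose by 1.41 with the combination, by 0.93 with CHR-3996 and by 1.48 with tosedostat (standard error 0.12, adjusted p = 3.23e-06, 6.57e-05 and 1.09e-04).

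BNIP3L and BNIP3, both receptors that lie in the mitochondrial membrane, differed. BNIP3L had values of 11.79, 11.37 and 11.51 with the combination, 11.51, 11.54 and 11.64 with CHR-3996, 9.89, 9.66 and 9.90 with tosedostat, and 9.48, 9.47 and 9.52 in untreated cells. The groups with CHR-3996 lay far above the others, at a rise of 2.07 with the combination and 2.08 with CHR-3996 (standard error 0.13 for both), and tosedostat alone gave 0.33 (adjusted p = 0.216). BNIP3 read 10.59, 10.33 and 10.34 with the combination, 10.42, 10.41 and 10.31 with CHR-3996, 10.47, 10.28 and 10.42 with tosedostat, and 10.36, 10.53 and 10.49 in untreated cells. All 4 groups overlapped, with changes of -0.04, -0.08 and -0.07 and 95% intervals within -0.32 and 0.21. NBR1, a receptor that works with SQSTM1, had values of 11.30, 11.17 and 11.14 with the combination, 10.97, 11.31 and 11.27 with CHR-3996, 10.41, 10.46 and 10.38 with tosedostat, and 9.92, 10.13 and 9.85 in untreated cells. It rose by 1.24 with the combination and by 1.22 with CHR-3996, and the 0.45 with tosedostat did not pass (adjusted p = 0.0793). CALCOCO2, a receptor for bacteria and mitochondria, rose by 0.71 and 0.57 and had 0.45 with tosedostat (adjusted p = 0.11), and its call with CHR-3996 was lost with equal array medians (adjusted p = 0.0523).

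TFEB, the transcription factor that drives autophagy and lysosome genes when amino acids are scarce, had a pattern of its own among the 37 genes. Its values were 7.26, 7.66 and 7.10 with the combination, 6.93, 7.11 and 6.86 with CHR-3996, 8.08, 8.18 and 7.84 with tosedostat, and 6.49, 6.92 and 6.50 in untreated cells. The tosedostat arrays were the highest, the combination arrays lay between them and the untreated ones, and the CHR-3996 arrays overlapped the untreated ones. TFEB rose by 1.40 with tosedostat (standard error 0.17, 2.63-fold, adjusted p = 0.00183) and by 0.70 with the combination (adjusted p = 0.00667), and had 0.33 with CHR-3996 (adjusted p = 0.158). It was the 1 member called after tosedostat and not after CHR-3996 by the brightest probe sets, but with the replicate block or the mean of its probe sets TFEB was called higher with CHR-3996 too. The call with the combination was lost with equal array medians (adjusted p = 0.0588) and with quantile normalization (0.167).

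**Figure D2:**
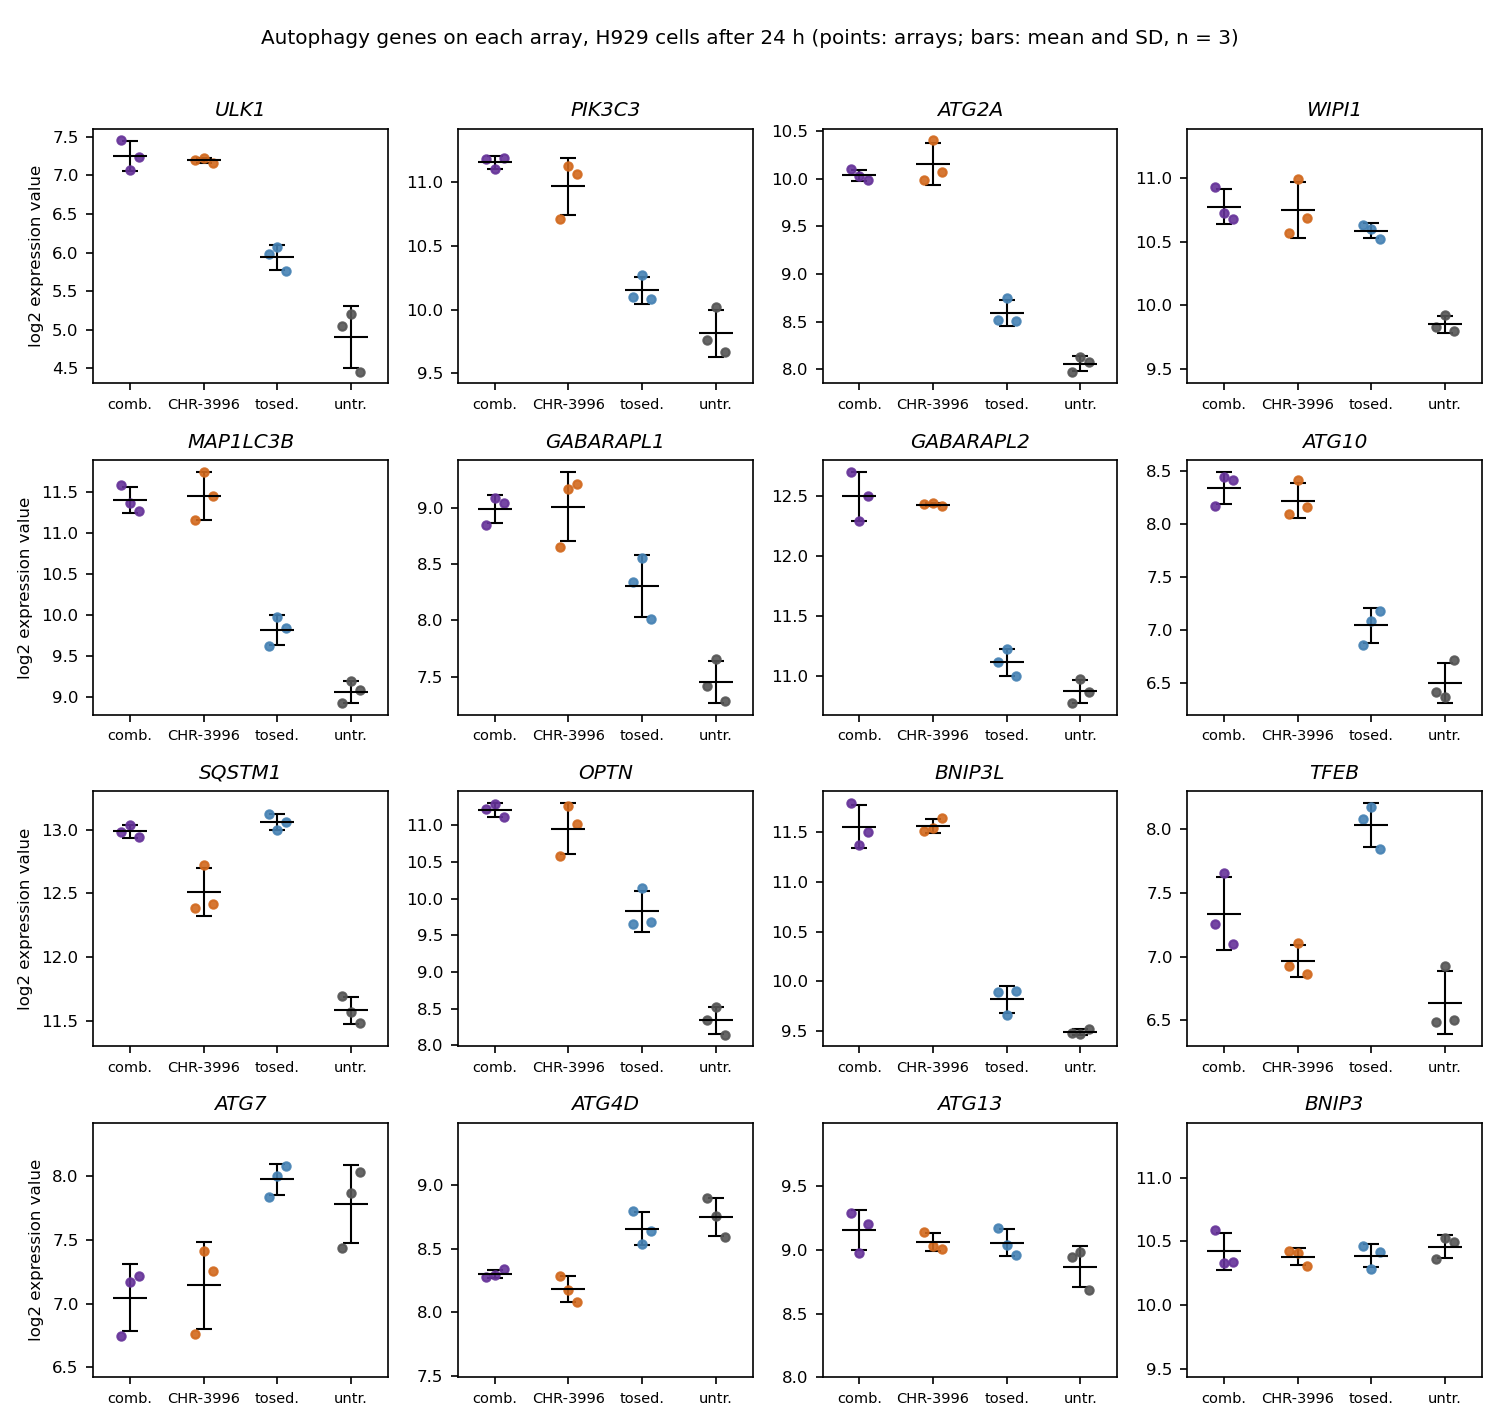
Log2 values of 16 of the genes on each of the 12 arrays (points), with group means and SD (bars, n = 3 arrays a group), in the order combination, CHR-3996, tosedostat and untreated. The combination and CHR-3996 stand together in most panels, as for MAP1LC3B near 11.4. SQSTM1 is highest in the groups with tosedostat, alone or combined, and TFEB with tosedostat alone. BNIP3 overlaps in all 4 groups, while for ATG13 the CHR-3996 arrays lie above the untreated ones.

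CHR-3996 added to tosedostat changed most of the genes. The combination against tosedostat gave 20 members higher and 3 lower, where 30.4% and 15.8% of all genes were called, with a median of 0.42 for the members and 0.12 for all genes. The groups did not overlap for 26 members above and 3 below, where 58.9% of all genes were apart. Of the 15587 genes 5790 lay wholly above and 3386 wholly below. With equal array medians 16 members were higher and 4 lower, SQSTM1 being the one added, and the split over all probe sets turned from 28.4% higher and 13.7% lower into 20 and 23.7% (21.5 and 23.5% with quantile normalization). The largest rises were those of BNIP3L at 1.74 (95% interval 1.46 to 2.02), MAP1LC3B at 1.59, ATG2A at 1.45, OPTN at 1.39 and GABARAPL2 at 1.38. ATG7 fell by 0.93, TFEB by 0.70 and ATG4D by 0.35, and SQSTM1 was at -0.08 (adjusted p = 0.647) by its brightest probe set. The call of ATG5 ended without each of the 6 arrays in turn (adjusted p = 0.0539 to 0.0999), and that of ATG4D without 5 of them (0.0574 to 0.115), all but tosedostat replicate 2. Those of WIPI2 and GABARAPL1 ended without combination replicate 3 or tosedostat replicate 1 (0.0571 and 0.0542), and without tosedostat replicate 3 (0.0509).

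Tosedostat added to CHR-3996 changed none of the 37 genes by the test. The combination against CHR-3996 gave 0 calls among the members, where 0.0577% of all genes were called. The unadjusted p was under 0.05 for 3 of the 37, ATG12 at 0.36, ATG4B at 0.30 and SQSTM1 at 0.48, where 11.1% of all genes had such a p. The lowest adjusted p was 0.214, that of SQSTM1. The 95% intervals of the 37 differences lay between -0.59 (the lower end for ATG9A) and 0.76 (the upper end for TFEB), and no interval reached past these values. For 6 members every combination array lay above every CHR-3996 array, and for 0 below, where 15.4% of all genes were apart. Of the 15587 genes 1867 lay wholly above and 532 wholly below.

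Set directly against each other, CHR-3996 and tosedostat differed in 22 of the 37 genes. CHR-3996 gave the higher value in 18 and the lower in 4, where 27.9% and 19.3% of all genes were called. Equal array medians gave 14 and 5, with ATG4B added among the lower ones, and the split over all probe sets turned from 26.3 and 16.6% into 19.2 and 25.1% (21.8 and 23.9% with quantile normalization). The 4 that were lower with CHR-3996 were TFEB at -1.07 (95% interval -1.45 to -0.68), ATG7 at -0.83, SQSTM1 at -0.55 and ATG4D at -0.47. Those with the largest difference in the other direction were BNIP3L at 1.75, MAP1LC3B at 1.64, ATG2A at 1.57, GABARAPL2 at 1.31 and ULK1 at 1.26. WIPI1 was at 0.16 (95% interval -0.12 to 0.44), CALCOCO2 at 0.11 (-0.19 to 0.42) and ATG14 at 0.06 (-0.17 to 0.29), and these differences did not pass the test (adjusted p = 0.345, 0.549 and 0.701). The doses differ in kind and were given at 1 level each, so the sizes hold for these doses only.

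The interaction term asks whether the effect of the combination differs from the sum of the 2 single effects on the log2 scale. It was called for 1 member, SQSTM1, at -1.00 (standard error 0.17, adjusted p = 0.0436), where 0.0321% of all genes were called higher and 0.244% lower. By its brightest probe set the combination value was no higher than the tosedostat value, while 2 of its 5 probe sets were called higher with the combination than with tosedostat, at 0.68 and 0.89 (adjusted p = 0.0104 and 0.0232), as SQSTM1 was by the mean of its probe sets. The call ended without 11 of the 12 arrays in turn (adjusted p = 0.0778 to 0.138, the exception being CHR-3996 replicate 1) and without the filter (0.128). Of the 37 terms 28 lay below 0, with a median of -0.22, against 48.4% of all genes below 0 and a median of 0.01. The lowest were those of OPTN at -1.23 (95% interval -1.83 to -0.63), TFEB at -1.02, ULK1 at -0.97, GABARAPL1 at -0.87, MAP1LC3B at -0.80, WIPI1 at -0.70 and ATG2A at -0.65, with adjusted p between 0.123 and 0.266. With SQSTM1 these are the 8 genes that were called higher after tosedostat alone. A total of 11 members had an unadjusted p under 0.05, where 11.2% of all genes did. The term contains the same tosedostat and untreated arrays as the tosedostat comparison. It subtracts the tosedostat change by which the 8 genes were called, so their low terms are not a separate result. The highest term was that of ATG16L1 at 0.38 (adjusted p = 0.638).

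**Figure D3:**
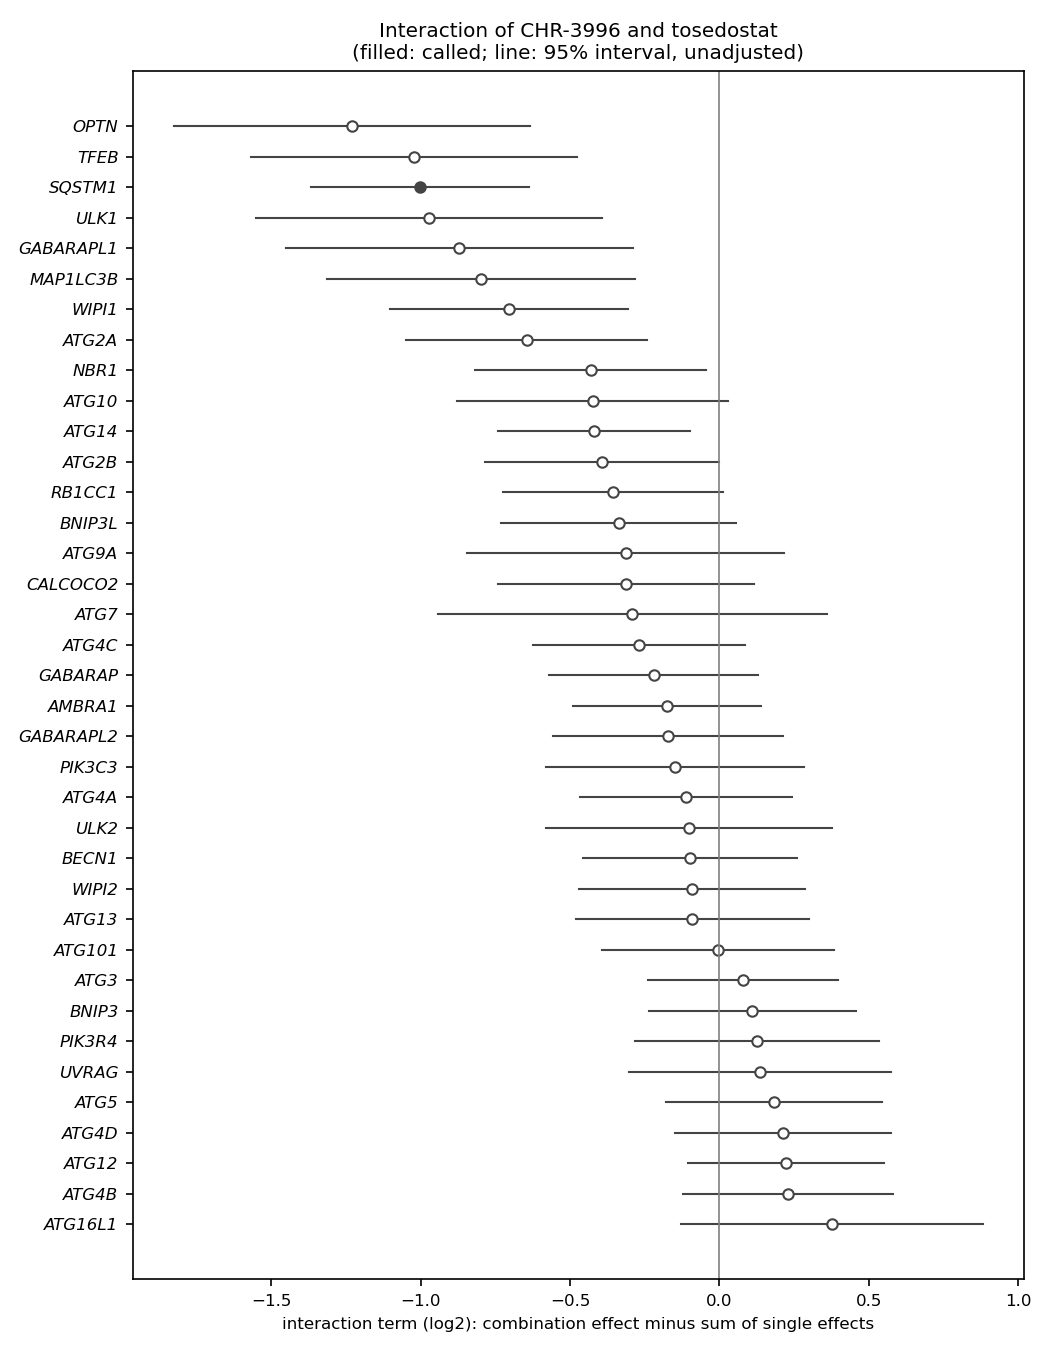
Interaction term of CHR-3996 and tosedostat on the log2 scale for each of the 37 genes (points), with unadjusted 95% intervals (lines), in order of size. SQSTM1 at -1.00 is the 1 filled point, that is the 1 called. The 8 lowest terms, from OPTN at -1.23 to ATG2A at -0.65, are of the genes called after tosedostat. The term subtracts the tosedostat change by which these genes were called, so their low place is not a separate result.

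Probe sets of a gene differed in the size of the change and, in some genes, in its sign. Those of ATG2B ran from -0.39 to 1.10 with the combination, and those of CALCOCO2 from -0.19 to 0.93 with CHR-3996. Of the 82 kept probe sets 53 were called higher and 3 lower with the combination, 47 and 4 with CHR-3996, and 13 and 0 with tosedostat, where 32, 29.4 and 3.23% of all probe sets were called higher and 14.1, 15.7 and 0.451% lower. In no gene were 2 probe sets called in opposite directions against untreated cells. SQSTM1 had 5 kept probe sets, and with tosedostat their changes ran from 0.19 to 3.72, with the combination from 0.21 to 4.61 and with CHR-3996 from 0.09 to 3.14. The widest change was that of a probe set with means of 9.25 with the combination, 7.78 with CHR-3996, 8.36 with tosedostat and 4.64 in untreated cells. Its interaction term was -2.24 (adjusted p = 0.0547), while a probe set at 8.90, 8.48, 8.22 and 6.72 in the same groups was higher with CHR-3996 than with tosedostat by 0.26 (adjusted p = 0.284), the other way round from the brightest one. The second probe set of TFEB rose by 1.06 with tosedostat and by 0.74 with CHR-3996 (adjusted p = 0.0302 and 0.0211), so that the lack of a call with CHR-3996 did not hold for both.

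For ATG12, the brightest probe set was higher with CHR-3996 than with tosedostat by 0.46, and the dimmest was lower by 0.40 (adjusted p = 0.0414). The dimmest had means of 6.96 with the combination, 6.27 with CHR-3996, 6.67 with tosedostat and 6.54 in untreated cells, and was called higher with the combination (0.42) alone of the treatments against untreated cells. This was the 1 case of opposite calls within a gene, among the comparisons made. ATG7 fell with 2 of 3 kept probe sets under CHR-3996 (by 0.64 and 0.79), while the third, with group means between 4.21 and 4.52, was at 0.23 (adjusted p = 0.537). The other probe set of ATG3 rose with the combination, by 0.72 against untreated cells and by 0.82 against tosedostat (adjusted p = 0.00528 and 0.00261), and 1 of the 3 of ATG4B rose with the combination by 0.63 (adjusted p = 0.0136). BNIP3, not called by its brightest probe set, was called lower with CHR-3996 by the other one, at -0.51 (adjusted p = 0.0319). That other probe set was also called lower with CHR-3996 than with tosedostat, at -0.54. A second probe set of CALCOCO2 rose with tosedostat by 0.54 (adjusted p = 0.0239), which makes 9 genes with at least 1 probe set called in that comparison. The second probe set of OPTN had 0.81 with tosedostat (adjusted p = 0.137).

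**Figure D4:**
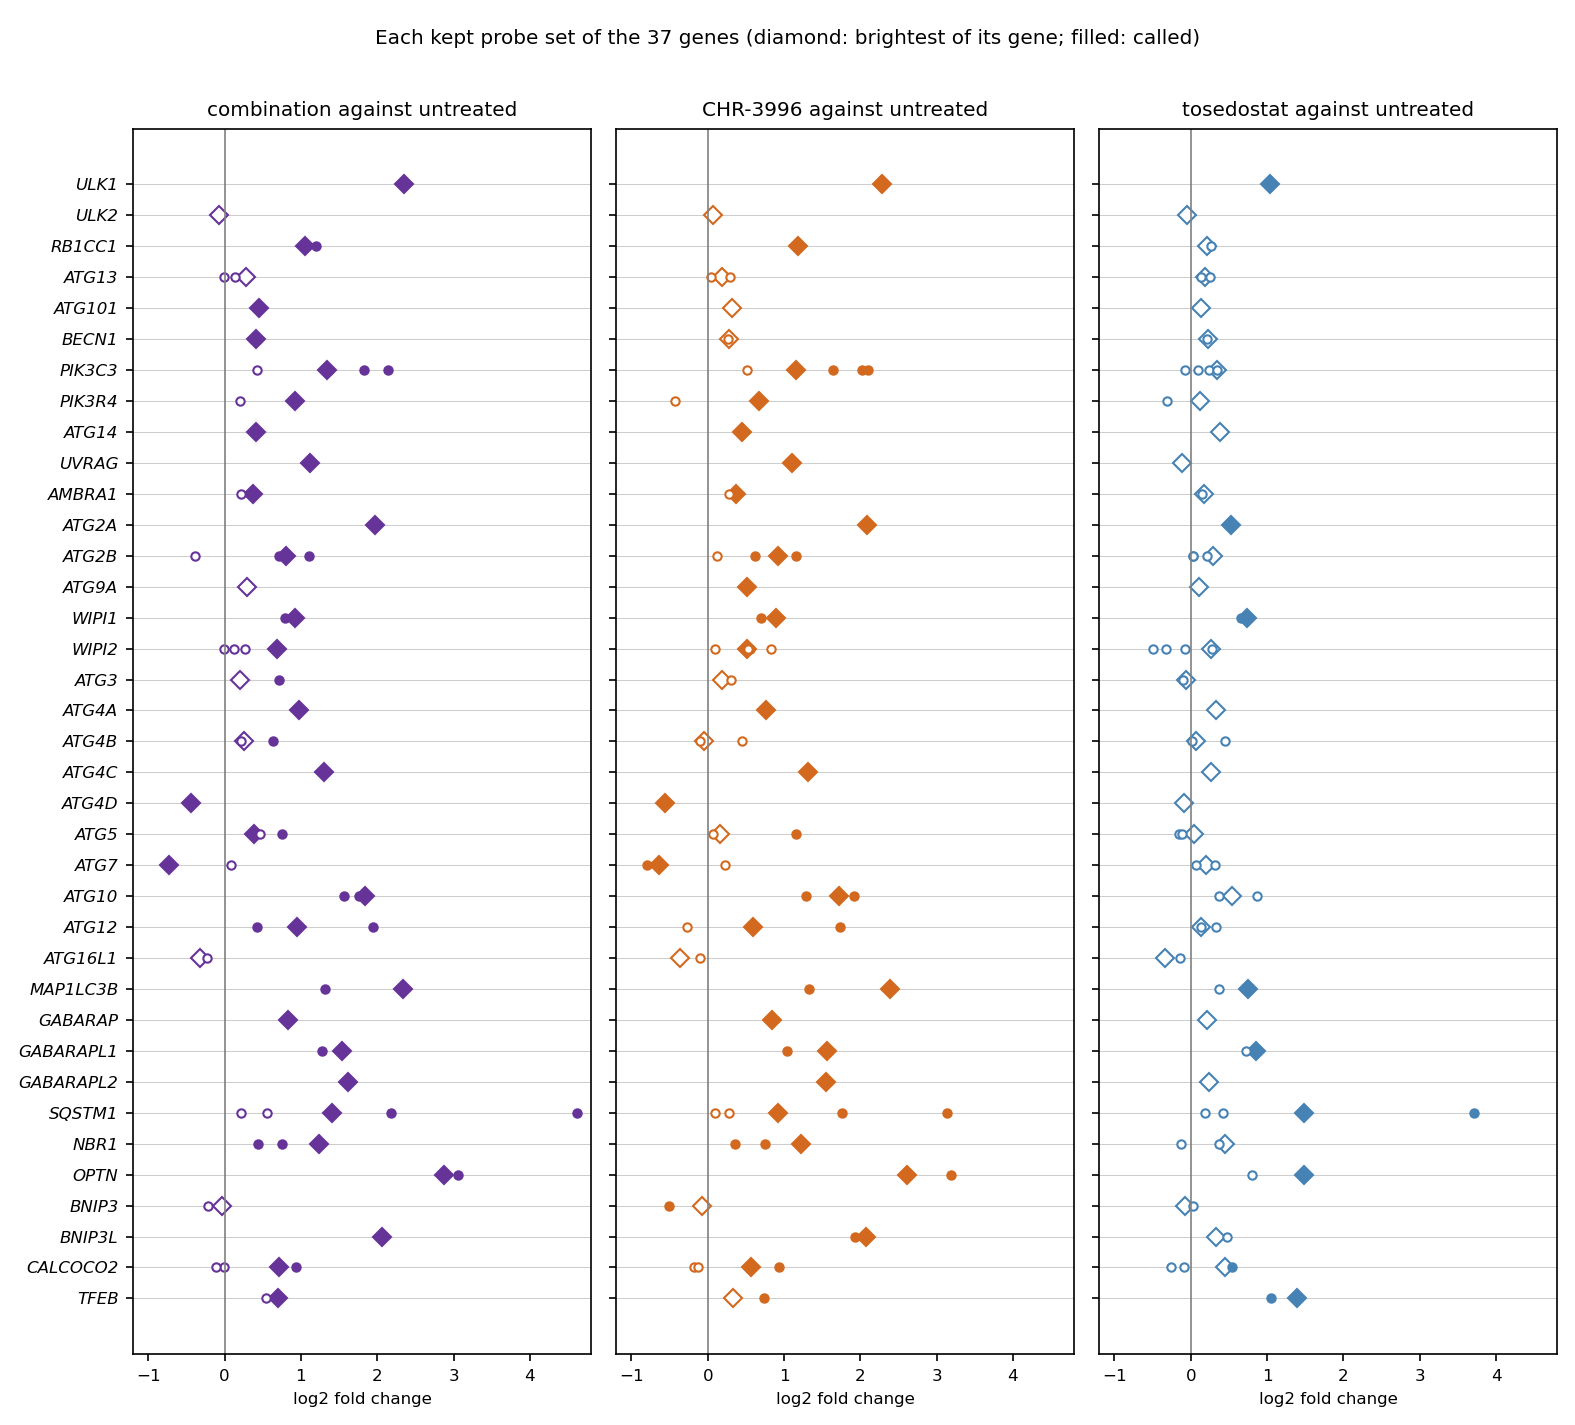
Log2 fold change against untreated cells of each of the 82 kept probe sets with 1 symbol (diamonds: the brightest of its gene; circles: the others; filled: called), in 3 panels for the combination, CHR-3996 and tosedostat. Filled points left of 0 belong to ATG4D, ATG7 and, with CHR-3996, BNIP3, and the farthest right in each panel is a dimmer SQSTM1 probe set except with CHR-3996, where a dimmer OPTN probe set at 3.19 stands beside it.

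Other genes with a part in autophagy were also listed, without parting those that promote it from those that restrain it. Of 37 such genes 36 were measured, and 23 were called higher and 2 lower with the combination, 20 and 1 with CHR-3996, and 7 and 0 with tosedostat, with medians of 0.75, 0.68 and 0.25. Of all genes 34.6% were called higher and 15.9% lower with the combination, 31.7% and 18% with CHR-3996, and 4.25% and 0.545% with tosedostat. The genes called lower were TEX264, a receptor for the endoplasmic reticulum, at -0.44 with the combination and -0.50 with CHR-3996, and ATG16L2, a relative of ATG16L1, at -0.38 with the combination. TP53INP1, whose protein binds LC3 and promotes autophagic cell death, had means of 11.59 with the combination, 11.38 with CHR-3996, 8.65 with tosedostat and 7.02 in untreated cells. It rose by 4.57, 4.36 and 1.63 in the 3 treatments in that order. ZFYVE1, a marker of the membrane from which autophagosomes form, rose by 2.19, 2.22 and 0.89, and TECPR2, which takes part in early steps, by 1.00, 0.82 and 1.04. VMP1, a lipid scramblase of the endoplasmic reticulum, rose by 2.25 and 2.24 with the combination and with CHR-3996, and had 0.83 with tosedostat (adjusted p = 0.295). Its untreated mean was low, at 4.73 against a mean 40th percentile of 4.45. The SD of VMP1 was 0.58 with the combination and 0.81 with CHR-3996. PLEKHM1 and EPG5, which bring autophagosomes and lysosomes together, rose by 1.69 and 1.67 with the combination and by 1.66 and 1.66 with CHR-3996. RUBCN rose by 0.88 with the combination and by 0.91 with CHR-3996, and had 0.17 with tosedostat (adjusted p = 0.65). RETREG1 and CCPG1 are receptors for parts of the endoplasmic reticulum. RETREG1 rose by 1.26, 0.61 and 0.82 in the 3 treatments, and CCPG1 rose with tosedostat alone, by 0.93 (adjusted p = 0.0115), and was lower with the combination than with tosedostat by 0.84.

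Of 7 transcription factors known to act on autophagy genes, 6 were called higher with the combination, 6 with CHR-3996 and 3 with tosedostat, where 34.6%, 31.7% and 4.25% of all genes were. TFE3 and MITF, the relatives of TFEB, rose by 1.35 and 2.09 with the combination, by 1.23 and 1.83 with CHR-3996 and by 0.94 and 0.58 with tosedostat. FOXO1 rose by 1.26 and 1.36 with the combination and CHR-3996 and was at 0.00 with tosedostat, with means of 8.15 in both groups. FOXO3 rose by 1.27 and 1.19 and had 0.29 with tosedostat (adjusted p = 0.273). ZKSCAN3 rose by 0.80 and 0.73 and had 0.05 with tosedostat (adjusted p = 0.941). The counts above do not part factors that raise autophagy genes from those that lower them. DDIT3, a factor of the stress response, had means of 10.36 with the combination, 10.70 with CHR-3996, 9.00 with tosedostat and 6.97 in untreated cells. ATF4, the factor of the amino acid response, was not called against untreated cells at 0.05, -0.14 and 0.59 (adjusted p = 0.837, 0.575 and 0.105).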

How the data were processed

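RNA of each sample was amplified over 2 cycles, labelled with biotin and hybridized to an Affymetrix U133 Plus 2.0 array, and the authors normalized the scans in dChip. What they deposited are log2 values, with 54675 probe sets for each of the 12 arrays. Which dChip version, normalization and probe summary they used is not given in the sources used here. An array holds 1141 to 1344 values of exactly 0, none of them of a member. Control probe sets (62) were removed, and a probe set was kept where at least 3 of the 12 arrays had it above their 40th percentile (36395 of 54613). limma 3.58.1 (R 4.3.3) was fitted to the values as deposited, with 4 group means and 8 residual degrees of freedom. Benjamini and Hochberg adjustment ran within each of 7 comparisons, over all kept probe sets. The direct comparison of CHR-3996 with tosedostat was added after the values were seen. The 95% intervals are those of the fit, unadjusted. Symbols are those of the platform annotation. The number of arrays limits the precision.

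The members and lists were chosen with earlier results of these data known. All members could be named. Values on every array were given for those called with a change of at least 2-fold in some comparison, called in the interaction or with probe sets called in opposite directions, and further for ATG4D, WIPI1, ATG7 and BNIP3, chosen after their values were seen. Genes named from the other lists were also chosen after their values were seen.

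Replicates are numbered 1 to 3 in every group, and the labels do not say what a number marks. Same-numbered arrays deviated together (r over 0.1 in all 3 pairs) for the combination with CHR-3996 (0.179 to 0.28), the combination with tosedostat (0.19 to 0.233), CHR-3996 with tosedostat (0.116 to 0.157) and tosedostat with untreated cells (0.126 to 0.288), but not for the combination with untreated cells (0.0981 to 0.168) or CHR-3996 with untreated cells (0.0358 to 0.12). The results were recomputed with quantile normalization, with equal array medians, without the filter and at the 60th percentile, with a replicate block, with a trended prior variance and robust estimation, on the groups of a comparison alone, with other choices of probe set, by the size criteria of the methods (at least 2-fold and a difference of linear means over 100), and without each array in turn. The fit was tested on simulated data. Plots were made in Python 3.11.15 (matplotlib 3.10.9).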

Additional observations from a re-analysis of the deposited data

Results flagged for a closer look

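The interaction term, which sets the effect of the combination against the sum of the effects of CHR-3996 and tosedostat, was called by limma for SQSTM1 at -1.00 (adjusted p = 0.0436). The call ended without 11 of the 12 arrays in turn (0.0778 to 0.138), without the filter (0.128) and with the brightest probe set not named _s_at or _x_at (0.157). DDIT3, among the regulators listed beside the members, had an interaction term of -2.36 (standard error 0.25, adjusted p = 0.00538), with a rise of 3.39 with the combination, 3.73 with CHR-3996 and 2.02 with tosedostat. For both genes the term is built from all 12 arrays.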

How the results depend on the processing

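The counts of members called stood at 30 for the combination, 27 for CHR-3996 and 8 for tosedostat against untreated cells, 23 for the combination against tosedostat, 0 against CHR-3996, 22 for CHR-3996 against tosedostat and 1 for the interaction. The size criteria of the methods left 14, 13, 3, 9 and 9 in the comparisons that had calls, in that order and without the interaction, to which these criteria do not apply, nor does a fit on the compared groups alone. With each array left out in turn the counts ran from 29 to 31, 25 to 29, 4 to 6, 20 to 22, 0 to 0, 22 to 23 and 0 to 1. The tosedostat count was lowest without tosedostat replicate 2 (4) and was 5 without untreated replicate 1 or 3, and it was 5 with no filter and 4 in a fit of the compared groups alone. The variance trend gave 1 call for the combination against CHR-3996. The interaction had 3 calls with quantile normalization (WIPI1, SQSTM1 and OPTN), 2 with the variance trend (SQSTM1 and OPTN), 0 with no filter and 0 with probe sets without _s_at or _x_at in their name. With the replicate block it had 3 (SQSTM1, OPTN and TFEB), and the block gave 31, 29, 9, 23, 0 and 23 in the other comparisons in the order above. It ended no call of a member and added, among others, TFEB with CHR-3996 against untreated cells. The causes were not tested.

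Of the 111 calls of members, those that turned in direction did so with probe sets without _s_at or _x_at: ATG7 at 0.23 with CHR-3996 and 0.078 with the combination and WIPI2 at -0.00997 with the combination, all against untreated cells, and SQSTM1 at 0.26 for CHR-3996 against tosedostat. Of the same calls 20 were lost with equal array medians, 6 with quantile normalization, 8 with no filter and 0 with the filter at the 60th percentile, under which 36 of 37 genes were measured. Members not called could also turn: with equal array medians 28 of 37 lay above 0 with CHR-3996 against untreated cells (32 otherwise) and 23 for the combination against tosedostat (32 otherwise), where SQSTM1 was called higher with the mean of probe sets.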
